A study of Mus musculus with 6 samples.

Results

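The guanylate-binding proteins (Gbp genes) were followed in mouse C2C12 myotubes, multinucleated muscle cells that form when this myoblast line is kept in low serum. The genes listed for the family were Gbp2, Gbp3, Gbp4, Gbp5, Gbp6, Gbp7, Gbp8 and Gbp9, and each was taken from its highest-mean probe set tied to 1 gene symbol. Such a probe set was found for 6 of the 8, out of 19938 genes measured in this way: Gbp3, Gbp4, Gbp5, Gbp7, Gbp8 and Gbp9, with 1 probe set each. Gbp2 and Gbp6 were measured only by probe sets that several Gbp genes share. The family was chosen by its values in these arrays, because Gbp8 was far higher with Plin2 siRNA while interferon genes were not. The difference between siRNAs is therefore described without a test, and the fatty acid comparisons, which the choice did not use, are tested.

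Each of the 6 conditions had 1 array. Cells carried either scrambled (control) siRNA or siRNA against Plin2, the gene of the lipid droplet coat protein perilipin 2, at 10 nM. Within each siRNA, cells received albumin (BSA) alone, oleic acid on BSA or palmitic acid on BSA, with fatty acids at 200 µM for 20 h. All cultures were grown in 10% serum and then differentiated in 2% serum on a matrix coat, and all were transfected. The labels do not say whether the 6 cultures were independent, how many Plin2 siRNA sequences were used, or that any condition was repeated. An effect of losing Plin2 and any other effect of this siRNA cannot be told apart.

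Plin2 was lower in every array with its siRNA. With scrambled siRNA its log2 values for BSA, oleate and palmitate were 9.29, 10.03 and 10.10, against 6.95, 7.63 and 7.45 with its own siRNA. Over the 3 treatments the difference was -2.47 ± 0.16 (SD, n = 3 pairs of arrays), 5.53-fold lower. Array medians lay between 4.94 and 5.02, and pairs of arrays correlated at 0.9912 to 0.9942 when they shared an siRNA and at 0.9873 to 0.9915 when they did not, over 35556 probe sets. The 12 myotube markers averaged 11.52 to 11.76 over the scrambled arrays and 11.44 to 11.51 over the Plin2 siRNA arrays. Precision is limited throughout by having 6 arrays.

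Guanylate-binding proteins are large GTPases of the dynamin superfamily. Interferon-gamma induces most of them through promoter elements called GAS and ISRE. In infected cells the proteins gather on the membranes of pathogens and the vacuoles that hold them, and some members promote inflammasome activation. In skeletal muscle they are not genes of the contractile or metabolic programme. In the RefSeq gene table (GRCm38.p6) the mouse genes lie in 2 runs, and no other gene with its own probe set here lies inside them. Genes without such a probe set were not looked for. On chromosome 3 the order is Gbp5, Gbp7, Gbp3, Gbp2b and Gbp2, followed by a Gbp2 pseudogene. On chromosome 5 it is Gbp8, Gbp9, Gbp4, Gbp10, Gbp6 and Gbp11, the last of which RefSeq lists as a transcribed pseudogene.

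Promoter sequences are shown because the interferon element is the textbook route to Gbp expression, and they cover the chromosome 3 run because the table used here held windows for that run. RefSeq promoter windows of 300 bases, 250 before the start site and 50 after, were at hand for 5 Gbp genes, 3 of them measured members. Gbp4, Gbp6, Gbp8, Gbp9, Gbp10 and Gbp11 had no window in it. The ISRE core was searched on both strands as GAAA, any 2 bases, then GAAA. All 5 genes held it before a start site, each time as its reverse complement. Counted by window and anywhere in the 300 bases, 5 of the 6 Gbp windows held it, against 3.44% of 32851 windows of all genes. Among the listed interferon-stimulated genes, 15 of the 31 with a window held it. The runs of 30 bases below are on the + strand of GRCm38.p6, with every ISRE core match in capitals:
Gbp5 (chr3:142496759-142496788): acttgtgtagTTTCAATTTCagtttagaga
Gbp7 (chr3:142530273-142530302): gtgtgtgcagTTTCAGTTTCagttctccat
Gbp3 (chr3:142559992-142560021): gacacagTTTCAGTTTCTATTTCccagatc
Gbp2b (chr3:142594700-142594729): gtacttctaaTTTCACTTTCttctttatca
Gbp2 (chr3:142620594-142620623): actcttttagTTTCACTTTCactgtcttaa
The matches ended 155, 43, 29, 127 and 49 bases before the start site, in that order of genes. Gbp3 held 2 overlapping matches in this window and none in its second window. The GAS motif TTCNNNGAA was found in the windows of Gbp5 and Gbp7 (8.30% of all windows). An NF-kB motif, GGG, any 5 bases, then CC, was found in 4 of the 6 Gbp windows (50.8% of all), and the E-box CAGCTG in that of Gbp2b (16.3% of all). A match describes these letters and is not a shown binding site.

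The difference between siRNAs followed the genomic run of the members, and so did their signal level. Over all 6 arrays, values ran from 4.40 to 8.16 for the chromosome 5 members and from 2.90 to 4.90 for the chromosome 3 members. In the scrambled arrays alone, means were 4.93, 5.71 and 5.87 for Gbp8, Gbp9 and Gbp4. They were 3.1, 4.73 and 3.9 for Gbp5, Gbp7 and Gbp3. Outside the members, Gbp11 of chromosome 5 averaged 4.28 there, with a siRNA difference of 1.33. Gbp2b of chromosome 3 averaged 4.33, with a difference of 0.06. Any part of signal level in the siRNA difference was not tested. With Plin2 siRNA, Gbp8, Gbp9 and Gbp4, all of the chromosome 5 run, were higher in each of the 3 treatments, by means of 3.06, 1.51 and 1.04 log2 units. Gbp5, Gbp7 and Gbp3, all of the chromosome 3 run, had mean differences of 0.15, 0.03 and -0.07. In 3 of the 6 members all 3 Plin2 siRNA arrays lay above all 3 scrambled arrays, and in 0 they lay below; over all 21789 named probe sets these shares were 15.6% and 14.7%. The median difference was 0.59 over the 6 members and 0.01 over all named probe sets. This contrast chose the family, so nothing is read from these counts.

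**Figure D1:**
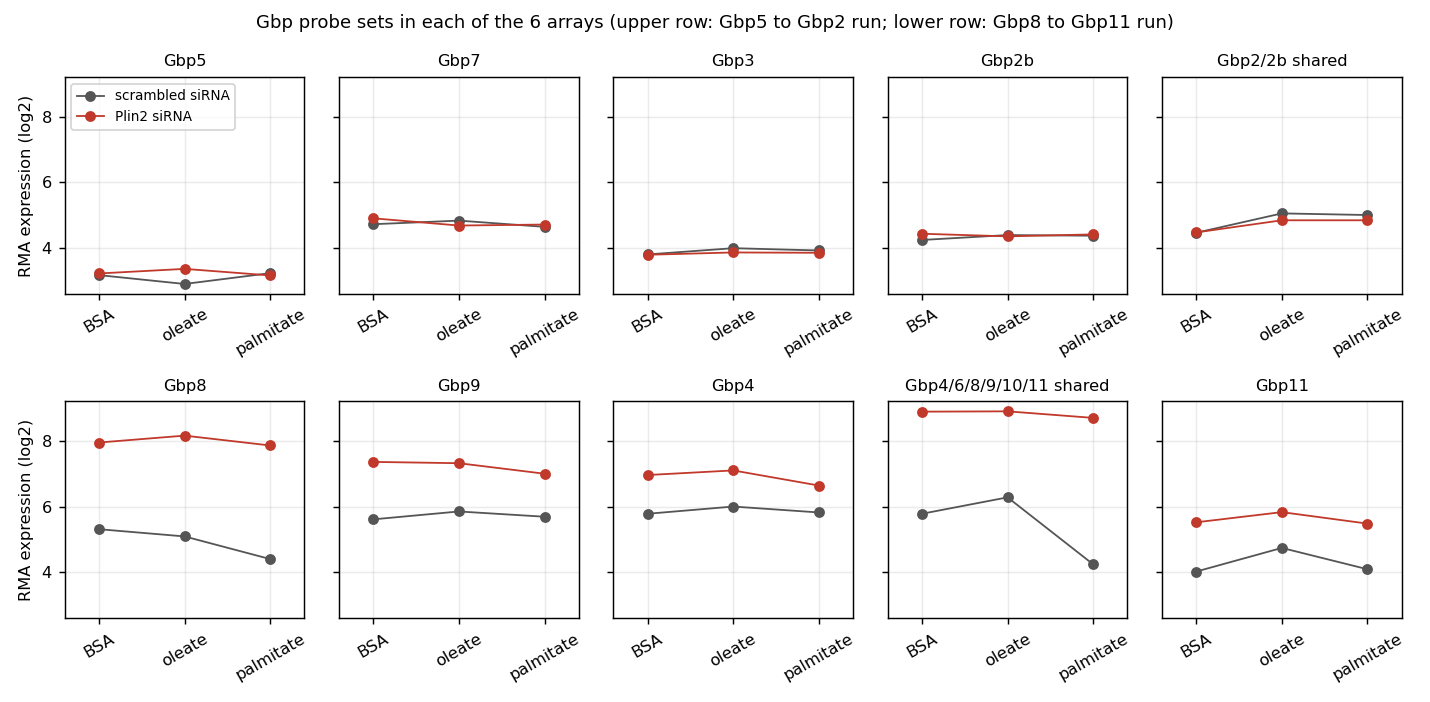
RMA expression (log2, y axis) of the 10 Gbp probe sets in the 3 treatments (x axis), with grey points for scrambled and red points for Plin2 siRNA and 1 array per point. In the lower row (Gbp8 to Gbp11) each red point lies above all grey points of its panel, while the 2 siRNAs overlap in each panel of the upper row.

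Gbp8 is among the less studied members of the family. For BSA, oleate and palmitate, its log2 values were 5.31, 5.09 and 4.40 with scrambled siRNA and 7.95, 8.16 and 7.86 with Plin2 siRNA. The lowest Plin2 siRNA array stood 2.55 above the highest scrambled array, so the groups were far from overlapping. The scrambled arrays varied more (4.93 ± 0.47, SD, n = 3) than the Plin2 siRNA arrays (7.99 ± 0.16), chiefly through the low scrambled palmitate array. The differences were 2.65 in BSA, 3.07 in oleate and 3.46 in palmitate, with a mean of 3.06 ± 0.41 (SD, n = 3 pairs), or 8.34-fold. By this mean it ranked 2 of 21789 named probe sets, counted from the highest.

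Gbp9 follows Gbp8 in the order of the Gbp genes on chromosome 5. In the same order of treatments it measured 5.61, 5.85 and 5.69 with scrambled siRNA and 7.36, 7.32 and 7.0 with Plin2 siRNA. The Plin2 siRNA arrays again stood clear of the scrambled ones, by 1.15. The differences narrowed from 1.75 in BSA to 1.47 in oleate and 1.32 in palmitate, the reverse of the order for Gbp8, with a mean of 1.51 ± 0.22 (2.86-fold, rank 31).

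Gbp4, an interferon-inducible member next to Gbp9, measured 5.78, 6.0 and 5.82 with scrambled siRNA and 6.96, 7.10 and 6.64 with Plin2 siRNA, in the same order of treatments. The gap between the groups was 0.65, the smallest of these 3 genes. Its differences were 1.18, 1.11 and 0.82, with a mean of 1.04 ± 0.19 (2.05-fold, rank 88). As for Gbp9, the palmitate pair differed least.

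The other probe sets of the chromosome 5 run showed the same direction. Gbp11, outside the 8 named genes, measured 4.02, 4.74 and 4.09 with scrambled siRNA and 5.52, 5.83 and 5.48 with Plin2 siRNA. Its mean difference was 1.33 ± 0.22 (SD, n = 3 pairs), and its groups did not overlap. Gbp6 and Gbp10, which belong to the members that protect macrophages against intracellular bacteria, were read only by probe set 10531994, which the platform annotation ties to Gbp4, Gbp6, Gbp8, Gbp9, Gbp10 and Gbp11 together. That probe set measured 5.78, 6.28 and 4.24 with scrambled siRNA and 8.89, 8.90 and 8.70 with Plin2 siRNA. The difference was 3.40 ± 0.96, 10.5-fold, and the scrambled palmitate array was again the lowest. A level of Gbp6 or Gbp10 alone cannot be taken from it. As it is also tied to Gbp8, Gbp9 and Gbp4, its difference is not a reading separate from theirs.

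The platform annotation shows that sequence is shared within the run. Whether the probe sets of Gbp9, Gbp4 or Gbp11 also read RNA of Gbp8 was not tested, because the probe sequences were not at hand. The same holds for other pairs of genes of the run. Over the 6 arrays the profiles correlated at 0.97 for Gbp8 with Gbp9, 0.96 for Gbp8 with Gbp4 and 0.99 for Gbp9 with Gbp4, values that the siRNA difference dominates. In scrambled cells palmitate and BSA differed by -0.91 for Gbp8 and by -1.54 for the shared probe set, but by 0.08 for Gbp9, 0.04 for Gbp4 and 0.07 for Gbp11. With Plin2 siRNA the order was not the same. There the values were -0.10 for Gbp8, -0.19 for the shared probe set, -0.36 for Gbp9, -0.31 for Gbp4 and -0.03 for Gbp11. Each value compares 1 array with 1 array.

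The chromosome 3 members overlapped between the siRNAs. Gbp5, which is linked to the NLRP3 inflammasome, measured 3.17, 2.90 and 3.23 with scrambled siRNA and 3.22, 3.36 and 3.16 with Plin2 siRNA. These groups overlapped, and the mean difference was 0.15 ± 0.27 (SD, n = 3 pairs). Without either oleate array it was -0.01, so its sign rested on the oleate pair. Gbp7, a member that aids oxidative killing of bacteria, measured 4.72, 4.83 and 4.64 against 4.90, 4.68 and 4.71. The groups overlapped here too, with a mean of 0.03 ± 0.16, which was -0.04 without either BSA array.

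Gbp3 measured 3.80, 3.99 and 3.92 with scrambled siRNA and 3.79, 3.86 and 3.85 with Plin2 siRNA, and its groups overlapped (-0.07 ± 0.06). Gbp2b, the gene formerly called Gbp1 and outside the 8 named genes, had a mean difference of 0.06 ± 0.12. Gbp2, which coats the vacuoles of the parasite Toxoplasma, was read only together with Gbp2b, by probe set 10496592. That probe set measured 4.46, 5.05 and 5.00 against 4.47, 4.84 and 4.84 (-0.12 ± 0.12). The deposited values carry no detection calls. A low-signal filter left out the lowest 33.3% of named probe sets (mean log2 up to 4.49). It kept 4 of the 6 members and dropped Gbp3 (mean 3.87) and Gbp5 (mean 3.18). Gbp2b, with array values of 4.24 to 4.43, also lay under this cut. For Gbp3, Gbp5 and Gbp2b an absent transcript and a flat one cannot be told apart.

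**Figure D2:**
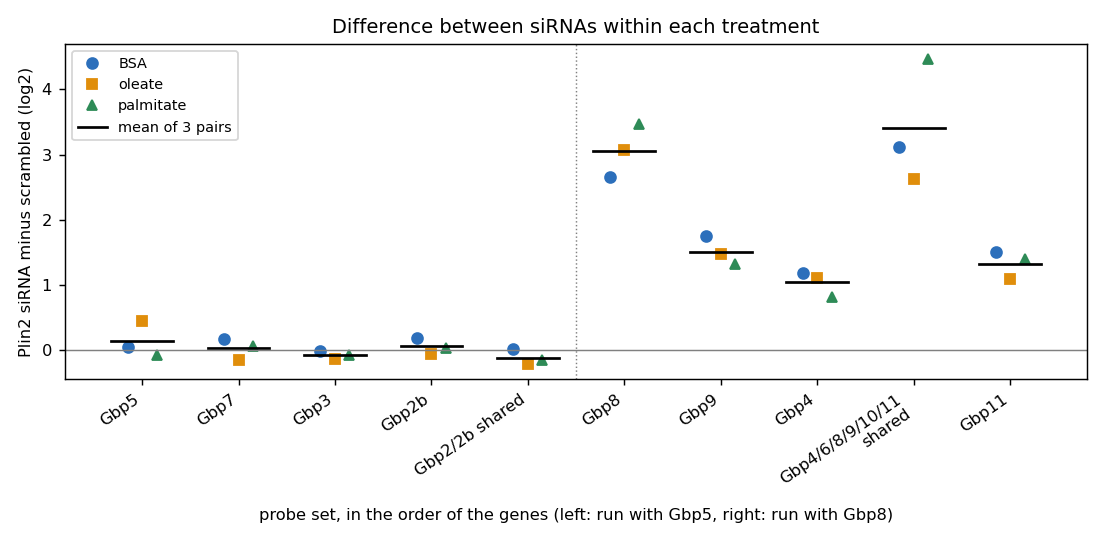
Plin2 siRNA minus scrambled difference (log2, y axis) within BSA, oleate and palmitate for each Gbp probe set (x axis), with the mean of the 3 pairs as a bar. The members of the chromosome 5 run lie between 0.82 and 3.46, and those of the chromosome 3 run between -0.15 and 0.45.

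The genes with the most similar pattern were looked up by the Euclidean distance between log2 values centred on each gene's mean, over the 6 arrays. This is a description, since the siRNA difference dominates all these profiles. Nearest to Gbp8 were Serpinb6b, a serine protease inhibitor gene (distance 0.74), the muscle carbonic anhydrase Car3 (0.79), the Z-disc gene Myot (0.85), the neurite growth gene Nrn1 (0.87) and the myosin-binding protein Mybpc1 (1.07). Their siRNA differences were 2.62, 3.53, 2.47, 2.44 and 2.35. Nearest to Gbp9 were the lactate dehydrogenase subunit Ldhb (0.15), the coactivator Ppargc1a (0.35) and the G-protein regulator Rgs4 (0.36). Nearest to Gbp4 were the thrombin receptor thrombomodulin, Thbd (0.21), Rnpepl1 (0.21) and the calcium-handling gene Asph (0.23). Within the family Gbp4 and Gbp9 were 0.60 apart, and Gbp8 was 2.03 from Gbp9 and 2.57 from Gbp4. None of the 11 nearest genes belongs to the interferon lists used here, and nothing is read from this. The siRNA contrast chose the family, and no gene of those lists had a difference above 0.78 (Trim25). The lowest difference among the 11 nearest genes was 0.99 (Rnpepl1).

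The pathway around the family was described by the same count, the number of genes whose Plin2 siRNA arrays all lay above (15.6% of all named probe sets) or all below (14.7%) the scrambled arrays. The immunity-related GTPases are a second family of interferon-induced GTPases that act on pathogen vacuoles. Of 6 measured, 1 lay above and 0 below, with a list median of 0.08. The gene above was Irgq (0.25 ± 0.12, SD, n = 3 pairs). Of 11 other large GTPases, which include dynamins, mitofusins, atlastins and the antiviral Mx proteins, 3 lay above and 2 below (median 0.03). The mitochondrial fusion gene Mfn1 stood at 0.40 ± 0.03 and the dynamin gene Dnm1 at -0.47 ± 0.06. The dynamin gene Dnm3 stood at -0.30 ± 0.11 with overlapping groups.

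The interferon ligands and their signalling genes showed no common direction. Of 8 interferon genes, 0 lay above and 1 below, Ifnk (-0.20 ± 0.11), and the median was 0.00. Their list mean was 4.21 to 4.28 over the scrambled arrays and 4.16 to 4.33 over the Plin2 siRNA arrays. These means lay under the low-signal cut of 4.49, and Ifnk had no array value above 2.97. For interferon genes under this cut, an absent transcript and a flat one cannot be told apart. Ifna2, with overlapping groups, stood at 0.28 ± 0.27. Of 22 receptor and signalling genes, 3 lay above and 6 below (median -0.06). The kinase Jak2, which transmits the interferon-gamma signal, stood at 0.53 ± 0.18. The receptor chain Il10rb stood at -0.59 ± 0.05 and Stat2, a subunit of the factor that binds the ISRE, at -0.43 ± 0.15.

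Interferon target genes other than Gbp were given by 2 lists. Of 37 interferon-stimulated genes, 2 lay above and 11 below, where 15.6% and 14.7% of all named probe sets did, with a median of -0.11 against 0.01 over all. Within treatments the median was -0.14 for BSA, -0.08 for oleate and -0.31 for palmitate. Ifit1, which binds viral RNA, measured 5.78, 4.78 and 6.29 with scrambled siRNA and 3.34, 3.35 and 3.73 with Plin2 siRNA. Its groups did not overlap, and its mean of -2.14 ± 0.62 (SD, n = 3 pairs) was opposite in direction to that of Gbp8. The chemokine Cxcl10 stood at -1.04 ± 0.42, and the ubiquitin ligase Trim25 at 0.78 ± 0.17. Of 18 antigen presentation genes that interferon-gamma induces, 3 lay above and 3 below (median 0.00). Among them Cd74, the invariant chain, stood at -0.60 ± 0.12 and the tRNA synthetase Wars at -0.50 ± 0.09, while Ido1, with overlapping groups, stood at -0.48 ± 0.28.

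Inflammasome genes, the pathway in which several Gbp proteins act, gave 2 above and 1 below of 13 (median 0.02). The protease Casp1 stood at 0.31, with array values of 3.36 to 3.8, under the low-signal cut of 4.49. Nek7, with array values of 10.08 to 10.54, stood at 0.30 ± 0.06. The cytokine Il1b stood at -0.41 ± 0.09 with overlapping groups. Of 16 NF-kB targets, 2 lay above and 1 below (median 0.06). The chemokine Cxcl5 stood at 0.94 ± 0.41 and the inhibitor Tnfaip3 at 0.30 ± 0.08. The interferon lists were part of what chose the family, so their values are not independent of that choice.

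**Figure D3:**
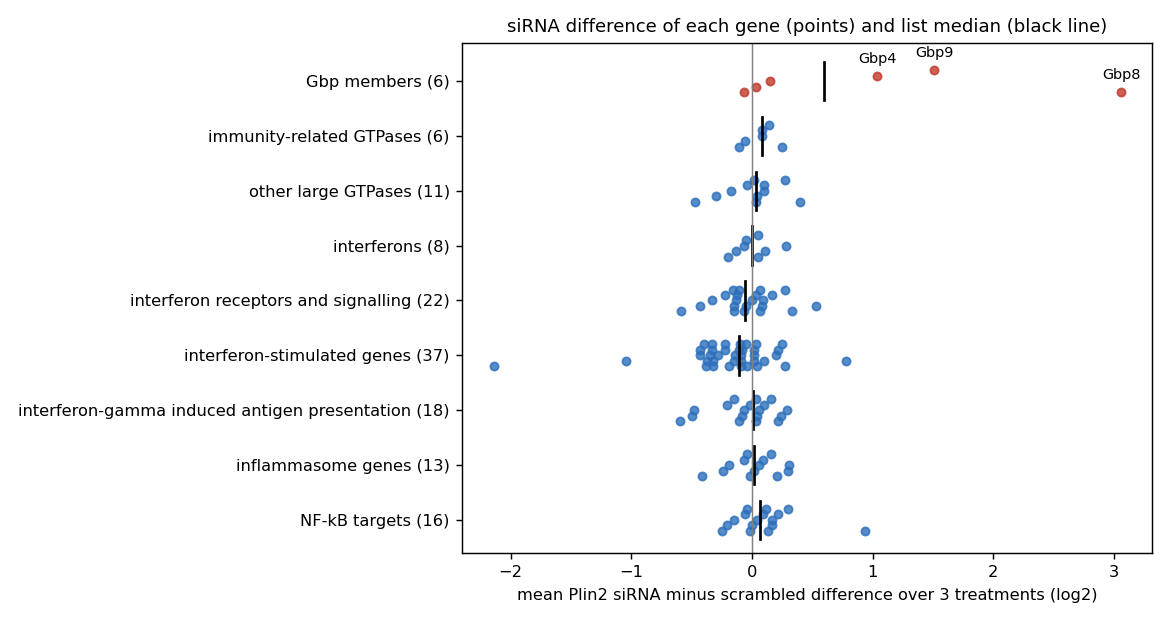
Mean Plin2 siRNA minus scrambled difference over 3 treatments (log2, x axis) for the 6 Gbp members in red and the genes of 8 lists in blue (y axis, number measured in brackets), with each list's median as a black line. Gbp8 (3.06), Gbp9 (1.51) and Gbp4 (1.04) lie above the highest gene of these 8 lists, Cxcl5 at 0.94, and the lowest is Ifit1 at -2.14.

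Gbp genes are strongly expressed in immune and endothelial cells, so markers of those cells were read beside them. Of 13 immune cell markers 0 lay above and 2 below, Cd68 (-0.53 ± 0.13, SD, n = 3 pairs) and Adgre1 (-0.16 ± 0.06). Laptm5 stood at -0.31 ± 0.25. Their list mean was 4.01 to 4.25 over the scrambled arrays and 3.99 to 4.06 over the Plin2 siRNA arrays, and no single value exceeded 5.53. Of 8 endothelial markers 0 lay above and 0 below, with list means of 4.05 to 4.28 and 4.15 to 4.28. The arrays give no marker a true zero.

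Markers of muscle maturity were read in the same way. Of 12 myotube markers 1 lay above and 5 below (15.6% and 14.7% of all named probe sets), the other 6 overlapping, with Actn2 at 0.81 ± 0.24, Myog at -0.69 ± 0.03 and Mylpf at -0.47 ± 0.10. Of 8 markers of undifferentiated myoblasts 5 lay above and 1 below, with Id3 at 1.60 ± 0.12, Myf5 at 0.63 ± 0.27 and Id2 at 0.46 ± 0.06. The marker below was the proliferation gene Mki67 (-0.19). Top2a (-0.23) and Ccnd1 (-0.07) had overlapping groups, so the list did not move in 1 direction. Any part of these differences in the Gbp difference was not tested. In such bulk RNA, fewer cells of a type and less RNA per cell cannot be told apart.

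The fatty acid comparisons asked whether lipid loading changed Gbp expression, and the limma test averaged each change over the 2 siRNAs. No member passed the threshold of an adjusted p of 0.05 in any of them. With oleate, 0 of 6 passed, where 0.0734% of all named probe sets did, and 0 had an unadjusted p under 0.05, as 1365 of all 21789 did. The 0.0734% (16 probe sets) is itself unsteady: leaving out 1 array gave from 3 probe sets (without the scrambled BSA array) to 262 (without the Plin2 siRNA oleate array). The fitted log2 changes ran from -0.07 for Gbp5 to 0.18 for Gbp4 (median 0.05, and -0.02 over all named probe sets). Gbp8 stood at 0.00 (SE 0.17, 95% confidence interval -0.37 to 0.36), made of -0.22 with scrambled and 0.21 with Plin2 siRNA. The intervals of the 6 members reached from -0.39 to 0.46, so changes of that size are not excluded by these arrays.

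With palmitate, 0 of 6 members passed (0.00918% of all), and 1, Gbp8, had an unadjusted p under 0.05, as 1134 of all did. The 2 probe sets called in all became 116 without the scrambled and 117 without the Plin2 siRNA oleate array, and 98 without the Plin2 siRNA palmitate array. Gbp8 stood at -0.50 (SE 0.17, 95% confidence interval -0.87 to -0.14, limma adjusted p = 0.88), lower in both siRNAs. That mean was uneven, -0.91 with scrambled and -0.10 with Plin2 siRNA. Without the scrambled oleate array the estimate stayed at -0.50 with an adjusted p of 0.033, while without its oleate partner the adjusted p was 0.089. It was -0.20 without the scrambled and -0.80 without the Plin2 siRNA palmitate array, and -0.19 and -0.81 without the scrambled and the Plin2 siRNA BSA array. The other 5 members lay between -0.14 and 0.09, and the median of all 6 was -0.14, against -0.01 over all named probe sets.

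The fatty acids were also set against each other at the same dose and time; oleate carries a double bond that palmitate lacks, and its chain is longer. Again 0 of 6 members passed (0.262% of all), and 2 had an unadjusted p under 0.05, Gbp8 and Gbp4, as 2007 of all 21789 did. The 57 probe sets called in all became 30 without the scrambled palmitate array, 84 to 112 without either BSA or the scrambled oleate array, 440 without the Plin2 siRNA palmitate array, 538 without the Plin2 siRNA oleate array, and 0 without the intensity trend. Gbp8 was at -0.50 in palmitate relative to oleate (SE 0.17, 95% confidence interval -0.87 to -0.13, limma adjusted p = 0.40), made of -0.69 with scrambled and -0.31 with Plin2 siRNA. Gbp4 was at -0.32 (SE 0.13, interval -0.60 to -0.04, adjusted p = 0.49), made of -0.18 and -0.46. Gbp9 was at -0.24 (SE 0.13, interval -0.53 to 0.05). For these 3 members of the chromosome 5 run palmitate was lower than oleate in both siRNAs, without passing the threshold. The share of all named probe sets with such a shared sign was not counted, so nothing is read from it. The median of the 6 members was -0.16, against 0.01 over all named probe sets. Without the Plin2 siRNA palmitate array Gbp8 stood at -0.80 with an adjusted p of 0.037, and without the scrambled palmitate array at -0.20 with 0.93.

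**Figure D4:**
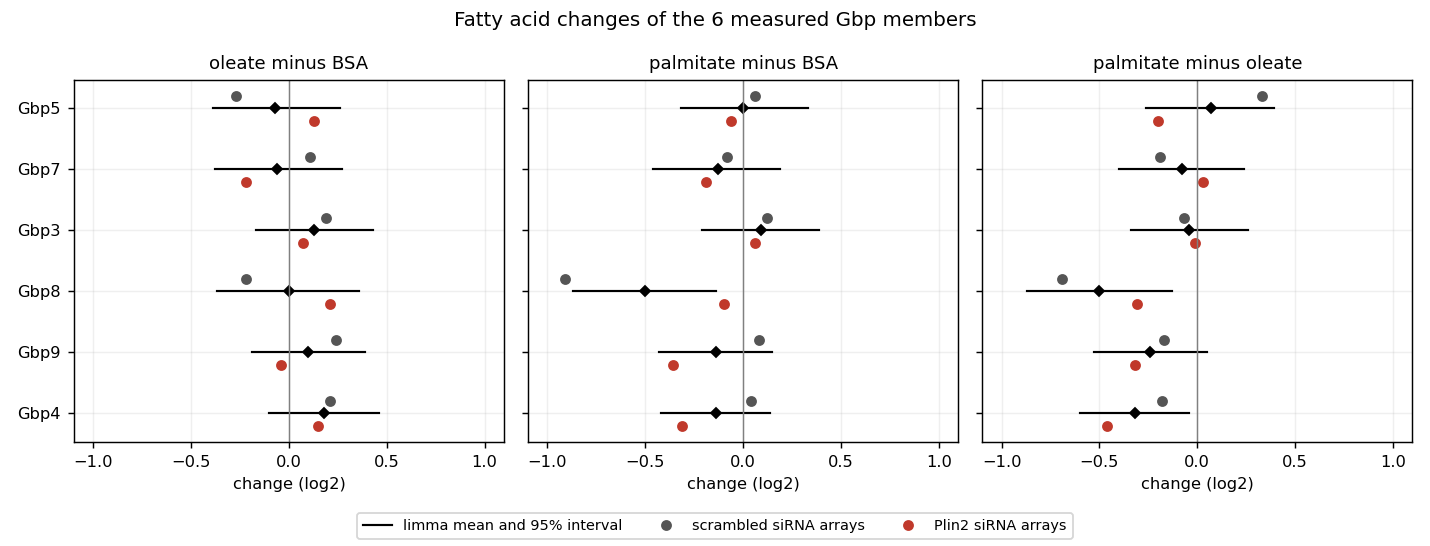
Changes of the 6 members (log2, x axis) for oleate and palmitate against BSA and for palmitate against oleate, with the limma mean and 95% confidence interval in black and the value within scrambled (grey) and Plin2 siRNA (red) arrays. Gbp8 with palmitate is the widest split, at -0.91 and -0.10.

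The other Gbp probe sets did not pass the threshold with a fatty acid either. The probe set shared by Gbp2 and Gbp2b was higher with either fatty acid in both siRNAs. It stood at 0.48 with oleate (SE 0.14) and 0.46 with palmitate (SE 0.14), with adjusted p-values of 0.71 and 0.96 in a limma fit to all 35556 probe sets. Gbp2b alone stood at 0.03 and 0.05. Gbp11 was at 0.52 with oleate (SE 0.15, adjusted p = 0.49) and at 0.02 with palmitate, so that palmitate stood at -0.50 relative to oleate (SE 0.15, adjusted p = 0.34). The probe set shared by the 6 genes of the chromosome 5 run stood at -1.12 in palmitate relative to oleate (SE 0.42, adjusted p = 0.71 in the limma fit to all probe sets).

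Whether the siRNA difference depended on fatty acid was tested as an interaction, the siRNA difference with any fatty acid minus that in BSA. It left 1 residual degree of freedom, and 0 of 6 members passed, as did 0% of all named probe sets; 551 of those had an unadjusted p under 0.05. Gbp8 had the largest estimate of the members, 0.62 (SE 0.25, 95% confidence interval 0.09 to 1.15, limma adjusted p = 1.0), and was the 1 member with an unadjusted p under 0.05. Gbp9 stood at -0.36 (SE 0.24, interval -0.87 to 0.15), and the median of the 6 was -0.15. In the 12 lists around the family, 0 genes passed in the oleate, palmitate and interaction tests. In palmitate against oleate 1 passed, the chemokine Ccl7 at -0.75 (limma adjusted p = 0.046). That call was lost with no intensity trend and with all 35556 probe sets in the fit, where 0 probe sets passed.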

How the data were processed

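RNA of each condition was read on 1 Affymetrix whole-transcript array, and the deposited log2 values, 1 for each probe set, come from RMA, per the submitters' processing notes. Which version of RMA is not given in the sources used here. The log base was read from RMA's usual output and the range of the values. Values were used as deposited. Of 35556 probe sets, GEO's platform annotation gave 21789 a single gene symbol and 1621 more than 1, and 12146 were not listed and are unnamed here. By Entrez ID, 21698 were found in the RefSeq table, and 0 symbols changed. Each gene is given by its highest-mean probe set.

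Differences between siRNAs are means of 3 within-treatment pairs with their SD. Fatty acid changes and the interaction came from limma 3.58.1 under R 4.3.3 (lmFit, eBayes with intensity trend) over the 21789 named probe sets of all 6 arrays, with siRNA and treatment as terms, 2 residual degrees of freedom (1 for the interaction) and Benjamini-Hochberg adjustment, two-sided. The error is thus what is left after these terms, and in the fatty acid tests it includes any dependence of the siRNA difference on treatment. It was moderated over all named probe sets, with 9.21 prior degrees of freedom (17.5 for the interaction). The p-values reflect nothing beyond the spread among these 6 arrays, which may be technical. The script was tested on artificial data with known shifts. Members and lists were chosen with earlier results of these data known. The text names all members, all other Gbp probe sets, up to 3 genes per list by size of a siRNA difference of 1 sign in 3 pairs, any past the threshold with a fatty acid, and the nearest 5 (Gbp8) or 3 profiles. Alternatives changed the scaling, the probe sets, the trend, the filter, the model and the arrays.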

Additional observations from a re-analysis of the deposited data

How the results depend on the processing

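The siRNA difference was recomputed after median centring, after quantile normalization, from the mean of a gene's probe sets and without each array in turn. It lay between 2.86 and 3.27 for Gbp8, 1.40 and 1.61 for Gbp9, and 0.97 and 1.14 for Gbp4, and the member median lay between 0.56 and 0.70 (0.59 as reported). Of these 54 values for single members 4 changed sign, all of Gbp5 or Gbp7. The mean of a gene's probe sets changes nothing here, as each member has 1 probe set. Leaving out 1 array in effect leaves out its partner, since the partner then carries no information on the siRNA difference. The count of members past the threshold was 0 with oleate under all alternatives run. Leaving out 1 array gave counts of 0 to 1 with palmitate and 0 to 1 for palmitate against oleate; the gene was Gbp8, without the scrambled oleate array (adjusted p = 0.033) and without the Plin2 siRNA palmitate array (0.037). Over all alternatives Gbp8 lay between -0.81 and -0.19 with palmitate and between -0.80 and -0.20 for palmitate against oleate, with adjusted p-values up to 1.0. The interaction could not be tested without an array, as no residual degrees of freedom are left. Among fatty acid changes of single members, 8 of 82 changed sign for oleate, 6 of 82 for palmitate and 4 of 82 for palmitate against oleate, and no such value was called. The siRNA difference and the fit already pair arrays by treatment and siRNA; with 1 array per condition, replicate numbers add no further pairing. Without the siRNA term 0 members passed with either fatty acid, as did 0 of all 21789 named probe sets. That setting therefore says nothing particular to the members.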

Other observations

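The genes next to the 2 Gbp runs were read after the Gbp values had been seen, as a description of the neighbourhood. On each side of each run the 4 nearest measured genes of the RefSeq order were taken. Around the chromosome 5 run, 0 of 8 had all Plin2 siRNA arrays above all scrambled arrays, and 3 had them below, where 15.6% and 14.7% of all named probe sets did. On the Gbp8 side Abcg3 stood at 0.11 ± 0.11 (SD, n = 3 pairs), Zfp951 at -0.27 ± 0.14, Thoc2l at 0.20 ± 0.17 and Mepe at -0.02 ± 0.15. On the Gbp11 side lie Lrrc8b, Lrrc8c and Lrrc8d, which encode subunits of the volume-regulated anion channel. Lrrc8b stood at -0.44 ± 0.04 and Lrrc8c at -0.55 ± 0.21, both with arrays that did not overlap, while Lrrc8d stood at -0.05 ± 0.11 and D830014E11Rik at 0.01 ± 0.17. Around the chromosome 3 run, 1 of 8 neighbours lay above, the transcriptional cofactor Lmo4 (0.39 ± 0.12), and 0 lay below; the others, from Pdlim5 at -0.20 to Bmpr1b at 0.00, had overlapping groups.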
